A study of Mus musculus with 11 samples.

Results

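The let-7 family of microRNAs (miRNAs) was examined in macrophages of the mouse heart before and after injury. Its members were the 9 mature miRNAs mmu-let-7a-5p, mmu-let-7b-5p, mmu-let-7c-5p, mmu-let-7d-5p, mmu-let-7e-5p, mmu-let-7f-5p, mmu-let-7g-5p, mmu-let-7i-5p and mmu-miR-98-5p, taken by name from the 1247 miRNAs on the array and written from here on without the species prefix. The study followed macrophages through the healthy heart and the stages after myocardial injury, on 11 single-colour Agilent mouse miRNA arrays. All cells were GFP-positive and came from hearts of Cx3cr1GFP/+ mice aged 2 to 3 months, in which GFP replaces one copy of the fractalkine receptor gene. Infarction was modelled by cryoinjury, in which part of the heart wall is frozen. Ly6Clow/CX3CR1high macrophages came from uninjured hearts without surgery (day 0, 2 arrays). Ly6Chigh/CX3CR1low macrophages came from hearts at day 3 after cryoinjury (3 arrays). Ly6Clow/CX3CR1high macrophages were again taken at day 7 (3 arrays) and at day 30 (3 arrays). The inflammatory Ly6Chigh population was measured at day 3 alone, so the stage and the population cannot be told apart there. Of the day 30 arrays, replicates 2 and 3 lay closer together than the scanner's own error and counted as 1 sample, which left 10 samples.

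The let-7 miRNAs are a family of small regulatory RNAs, first known from the timing of development in the worm, that share the seed through which a miRNA pairs with its target messenger RNAs. In vertebrates they are made from several separate genes, accumulate as cells differentiate and are kept low in stem cells by the RNA-binding protein LIN28. In mouse macrophages let-7e has been described as a regulator of the lipopolysaccharide receptor Tlr4, and let-7c as a promoter of alternative activation.

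The mature sequences are shown because the members differ by so few bases that the array's ability to separate them bears on every value. They are RefSeq sequences, with positions on GRCm38.p6, and all 9 members were matched. Capitals mark the seed (bases 2 to 8).
let-7a-5p: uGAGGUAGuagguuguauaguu
let-7b-5p: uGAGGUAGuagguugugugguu
let-7c-5p: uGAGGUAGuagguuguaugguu
let-7d-5p: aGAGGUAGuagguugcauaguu
let-7e-5p: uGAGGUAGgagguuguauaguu
let-7f-5p: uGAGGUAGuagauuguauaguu
let-7g-5p: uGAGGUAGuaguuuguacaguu
let-7i-5p: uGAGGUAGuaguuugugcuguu
miR-98-5p: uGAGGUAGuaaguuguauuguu

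All 9 sequences are 22 bases long and share the seed GAGGUAG. Counted from 1 at the 5′ end and read against let-7a-5p, the changes are A19G in let-7c-5p, U9G in let-7e-5p and G12A in let-7f-5p. let-7b-5p carries A17G and A19G, let-7d-5p U1A and U16C, let-7g-5p G12U and U18C, and miR-98-5p G11A and A19U. let-7i-5p carries 4 changes, G12U, A17G, U18C and A19U. Any pair of members differs at 1 to 6 bases. A probe can therefore take up part of the signal of a near neighbour, most easily among let-7a-5p, let-7b-5p, let-7c-5p, let-7e-5p and let-7f-5p, which are linked by steps of 1 base. The extent was not tested beyond 2 ceilings taken from ratios of signals.

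In the RefSeq listing used, the 9 members had 11 mature loci. let-7e-5p lies at chr17:17830366-17830387 (+), within the Spaca6 gene, with Mir99b and Mir125a less than 10 kb away. let-7c-5p has a copy at chr16:77599672-77599693 (+), outside any other gene listed, with Mir99a as its neighbour. Its other copy at chr15:85706616-85706637 (+) and let-7b-5p at chr15:85707325-85707346 (+) lie together within the long noncoding RNA gene Lncppara. let-7a-5p (chr13:48538239-48538260), a copy of let-7f-5p (chr13:48537889-48537910) and let-7d-5p (chr13:48536078-48536099) form a cluster on the minus strand. The other copy of let-7f-5p (chrX:151912353-151912374) and miR-98-5p (chrX:151913229-151913250) lie on the plus strand within Huwe1, a ubiquitin ligase gene. let-7g-5p (chr9:106178846-106178867, +) lies within Wdr82, and let-7i-5p (chr10:122985698-122985719, -) stands alone. For let-7a-5p the listing gave the chromosome 13 locus alone, so the let-7a cluster with miR-100 named below is not among these loci.

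Signals were total gene signals in scanner units, and array brightness was taken as the signal below which 75% of the 126 miRNAs found on every array lay. Brightness was 55.7 and 163 units for the day 0 arrays and 805, 962 and 1607 units for those of day 3. It was 114, 260 and 323 units for day 7 and 1453, 1754 and 2304 units for day 30, and thus varied 41.4-fold. Brightness therefore moved with the groups, and its part in the changes of signal was not tested apart from the brightness term described below. Values are given on 2 scales. The first is each member's share of the summed signal of the 9 members on the same array, in which a brightness factor common to the members cancels. The second is the log2 of the signal divided by the array's 75th percentile, called the scaled signal. Shares show unequal change within the family and not whether the amount of any one member stayed the same. Ratios of the signals of 2 members are given to follow them between arrays, and as ceilings on cross-hybridisation, and do not show which member was more abundant.

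As a whole the family was present on every array. Of the 9 members, 8 were detected on all 11 arrays, and miR-98-5p on 10, the exception being day 0 replicate 2. The scanner's own error on the 98 detected member values was 7.18 to 23.7% of the signal. The 9 members together held 14.0 and 7.11% of the total miRNA signal on the day 0 arrays, and 14.1, 14.7 and 13.9% at day 3. They held 7.40, 11.4 and 10.6% at day 7, and 12.2, 12.2 and 12.7% at day 30. The 4 groups averaged 10.5 ± 4.84% (SD, n = 2), 14.2 ± 0.393% (n = 3), 9.81 ± 2.13% (n = 3) and 12.3 ± 0.168% (n = 2) in that order of days. The day 0 arrays alone spanned a range that took in all day 7 and day 30 arrays and the lowest day 3 array. Within the family, the shares of some members differed between groups, while those of let-7a-5p, let-7d-5p and let-7f-5p passed no test.

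**Figure D1:**
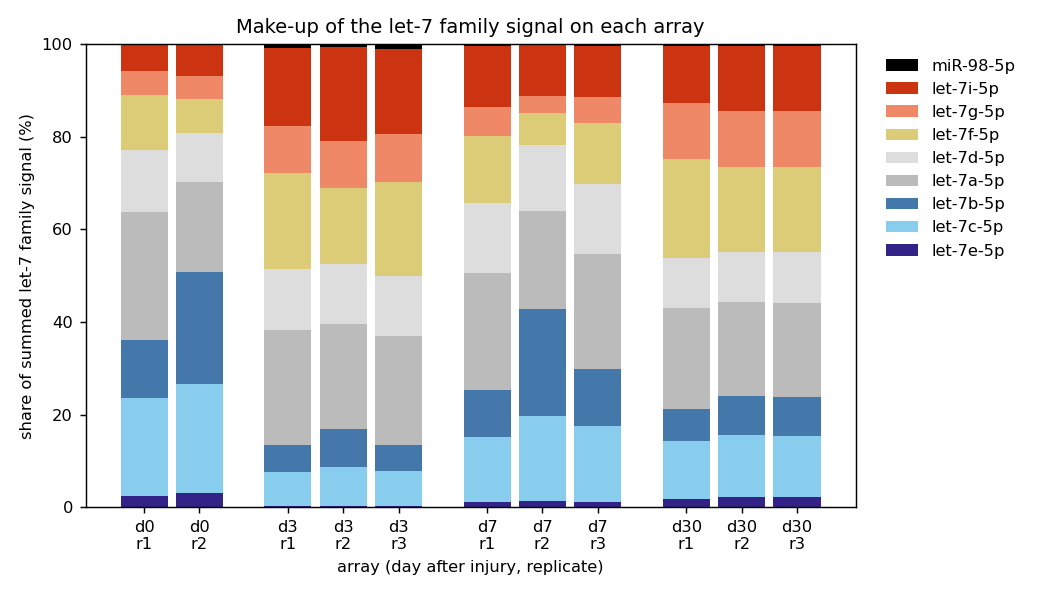
Share of the summed let-7 family signal held by each of the 9 members on each of the 11 arrays, in percent, with arrays ordered by day after injury and replicate (d0 to d30, r1 to r3). The let-7b, let-7c and let-7e blocks are thin at day 3 and thicker at day 0 and day 7, while the let-7i block is 16.9 to 20.3% at day 3, against 5.53 and 6.87% at day 0.

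In Ly6Chigh macrophages of day 3, let-7e-5p, let-7c-5p and let-7b-5p held a smaller share of the family signal than in Ly6Clow macrophages of the uninjured heart, and let-7i-5p, let-7g-5p and miR-98-5p a larger one. These were 3 higher and 3 lower members of 9 in limma, at a Benjamini-Hochberg adjusted p under 0.05 over all 369 miRNAs tested. On the same scale, which divides every miRNA of the table by the family sum, 11.1% of all miRNAs tested were called higher and 47.2% lower. Such shares take in miRNAs undetected in a group, the arrays having detected 151 to 173 miRNAs at day 0 and 301 to 338 at day 3. For example let-7c-1-3p, undetected on all arrays of both days, was called lower (log2 -2.34, SE 0.49, limma adjusted p = 0.00161). On the scaled signal 4 members were higher (let-7f-5p, let-7g-5p, let-7i-5p and miR-98-5p) and 2 lower (let-7c-5p and let-7e-5p), where 16.3% of all miRNAs were higher and 39% lower. This split depended on the scaling. Without scaling, with the 75th percentile over all miRNAs and with scaling on 4 control features, 8 members were called higher and 0 lower, let-7e-5p not being called. The median change of miRNAs detected on all arrays was then 2.73, 1.77 and 2.22, and -0.77 in the main scaling. The share of all miRNAs called under these 3 scalings was not taken, in this comparison or in the others. With scaling on the median, 4 members were higher and 1 lower. The median scaled change was 0.47 over the 9 members, against -0.79 over all miRNAs tested. Across the 4 groups the F test called 6 of 9 members on shares, where it called 83.7% of all miRNAs, and 5 of 9 on the scaled signal, where it called 78.9%.

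The other comparisons changed fewer members. At day 7 against day 3, let-7b-5p, let-7c-5p and let-7e-5p were higher in share and let-7g-5p and miR-98-5p lower, where 54.2% of all miRNAs were higher and 10.8% lower. On the scaled signal only let-7e-5p was higher, beside 21.1% of all miRNAs, and let-7f-5p, let-7g-5p, let-7i-5p and miR-98-5p were lower, beside 16% of all. Under the same 3 scalings 8, 6 and 8 members were lower there and 0 higher. The median miRNA detected on all arrays then moved by -1.71, -0.58 and -1.17. Between day 30 and day 3, let-7e-5p alone was higher at day 30, beside 18.2% of all miRNAs on shares and 9.76% on the scaled signal. On the scaled signal miR-98-5p was lower, beside 21.1% of all miRNAs, but not under those scalings. At day 30 against day 0, let-7g-5p, let-7i-5p and miR-98-5p were higher in share, beside 12.5% of all miRNAs, and no member passed the test on the scaled signal, where 56.4% of all miRNAs were called in either direction. Under each of those 3 scalings 9 members were higher there. The median miRNA detected on all arrays was then itself higher, by 3.26, 1.88 and 2.86. At day 30 against day 7, let-7g-5p alone was higher, beside 12.2% of all miRNAs on shares and 13.6% on the scaled signal. At day 7 against day 0, limma called 0 members on either scale, where it called 6.5% of all miRNAs on shares and 3.79% on the scaled signal. At an unadjusted p under 0.05 there were 2 members on shares and 1 on the scaled signal in that comparison. The share of all miRNAs at that unadjusted level was not taken. The comparisons share samples, so their counts are not independent of each other.

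**Figure D2:**
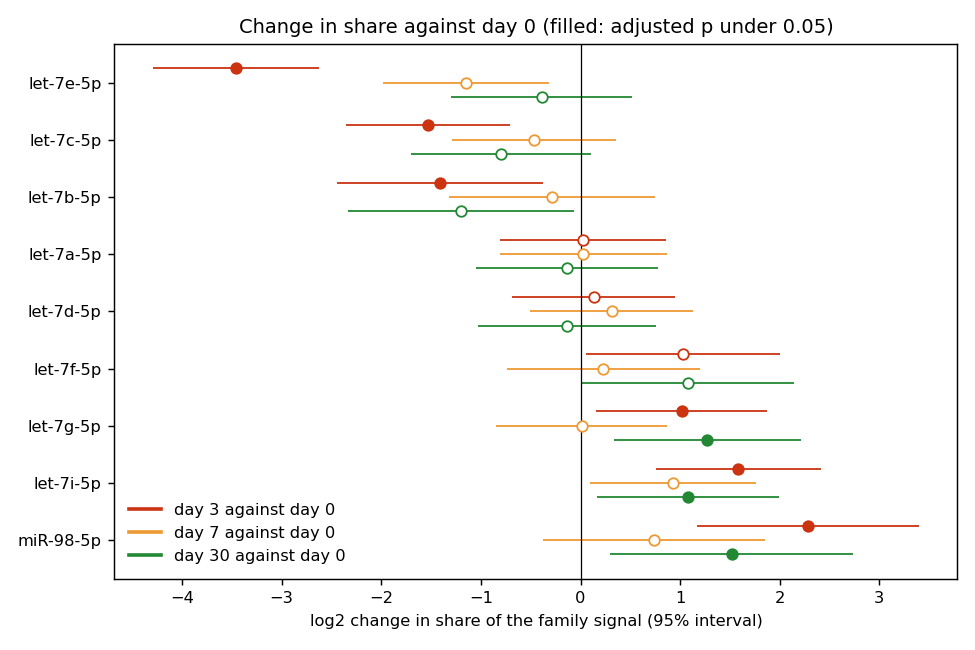
Change in the share of the family signal (log2) at day 3, day 7 and day 30 against day 0 for each member, with unadjusted 95% intervals from limma. Filled points had an adjusted p under 0.05, and the day 3 changes run from -3.46 for let-7e-5p to 2.28 for miR-98-5p.

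let-7e-5p had the widest swing of the 9 members on both scales. It held 2.35 and 3.02% of the family signal on the day 0 arrays and 0.267, 0.236 and 0.224% at day 3. At day 7 it held 1.12, 1.33 and 1.16%, and at day 30 it held 1.89, 2.22 and 2.16%. The 4 groups did not overlap, and their order from low to high was day 3, day 7, day 30 and day 0. The day 3 share was 11-fold lower than at day 0 (log2 change -3.46, SE 0.39, limma adjusted p = 4.35e-05). It was 4.98-fold higher at day 7 than at day 3 (log2 2.32, SE 0.35, limma adjusted p = 0.000324) and 8.41-fold higher at day 30 than at day 3 (log2 3.07, SE 0.39, limma adjusted p = 0.00011). The day 7 and day 0 shares were not separated after adjustment (log2 change -1.15, 95% interval -1.98 to -0.31, limma adjusted p = 0.123), and neither were those of day 30 and day 0 (-0.39, interval -1.30 to 0.52, limma adjusted p = 0.432). On the scaled signal let-7e-5p averaged -0.71 ± 0.31 (log2, SD, n = 2) at day 0, -3.83 ± 0.29 (n = 3) at day 3, -2.15 ± 0.37 (n = 3) at day 7 and -1.35 ± 0.16 (n = 2) at day 30. That is a fall of 3.12 in log2 at day 3 against day 0, when the median miRNA detected on all arrays moved by -0.77. Without any scaling its signal was 0.37 higher in log2 at day 3 than at day 0 (SE 0.40, limma adjusted p = 0.44), on arrays where that median was 2.73 higher.

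The let-7e-5p signal also set a ceiling on one kind of cross-hybridisation. It was 1.08, 1.04 and 0.955% of the let-7a-5p signal on the day 3 arrays, so on those arrays at most about that part of the let-7a signal can have been read by the let-7e probe. On the other arrays the ratio was 8.51 and 15.5% (day 0), 4.42, 6.32 and 4.71% (day 7) and 8.62, 10.9 and 10.6% (day 30). For let-7f-5p the lowest such ratio, 32.5% of the let-7a-5p signal on day 7 replicate 2, sets a much looser ceiling.

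The genomic partners of let-7e-5p moved with it. miR-99b-5p, of a family known to act on mTOR signalling, and miR-125a-5p, of a family known from blood stem cells, lie beside let-7e in the genome and were detected on all 11 arrays. The log2 scaled signal of miR-99b-5p was -2.56 and -3.15 at day 0, -7.04, -7.54 and -7.75 at day 3, -4.25, -4.68 and -3.96 at day 7, and -4.25, -4.34 and -4.38 at day 30. That of miR-125a-5p was -2.02 and -1.32 at day 0, -5.61, -6.34 and -6.38 at day 3, -3.35, -2.32 and -2.98 at day 7, and -3.74, -3.48 and -3.51 at day 30. The day 3 arrays lay below all others for both. Against day 0 the day 3 scaled signal was lower by a log2 change of -4.59 for miR-99b-5p (SE 0.44, limma adjusted p = 4.27e-05) and -4.44 for miR-125a-5p (SE 0.47, limma adjusted p = 7.44e-05).

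The other paralogues of these partners, miR-99a-5p and miR-125b-5p of the let-7c clusters and miR-100-5p of a let-7a cluster, were also lower in scaled signal at day 3 than at day 0. The partners were not followed under the 3 scalings that turned let-7b-5p and let-7c-5p from lower to higher in that comparison. Their calls under those scalings are therefore not given. A change of divisor moves all miRNAs above the floor by the same amount in log2. In the main scaling miR-99a-5p (-3.09) and miR-100-5p (-1.89) fell less than let-7e-5p (-3.12), which was 0.37 higher without scaling. By contrast miR-125b-5p (-3.29), miR-125a-5p and miR-99b-5p fell more than let-7e-5p did. The shared fall of the 5 partners is thus given for the 2 main scales only. All 5 partners were called lower at day 3 against day 0, and all 5 higher at day 7 and at day 30 against day 3, on both scales. Of all miRNAs tested, 39% were called for the day 3 fall on the scaled signal and 47.2% on shares. The rise from day 3 to day 7 was called for 21.1 and 54.2% of all on these scales. That from day 3 to day 30 was called for 9.76 and 18.2%. Among the 5 partners the smallest day 3 change was that of miR-100-5p (log2 -1.89, SE 0.49, limma adjusted p = 0.00809), which was undetected on day 0 replicate 2.

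At day 30 let-7e-5p and its neighbours stood differently to each other. Against day 0, miR-99b-5p (log2 -1.45, SE 0.48, limma adjusted p = 0.0206) and miR-125a-5p (-1.95, SE 0.52, limma adjusted p = 0.0077) were lower in scaled signal, while let-7e-5p was at -0.63 (95% interval -1.64 to 0.37, limma adjusted p = 0.251). Within each array, the log2 ratio of let-7e-5p to miR-125a-5p was 1.09 and 0.83 at day 0, 1.99, 2.62 and 2.22 at day 3, 0.91, 0.58 and 0.72 at day 7, and 2.28, 2.29 and 2.24 at day 30. The day 0 and day 7 arrays were thus on the low side and the day 3 and day 30 arrays on the high side, the same division as that of dim and bright arrays. The log2 ratio of let-7e-5p to miR-99b-5p did not divide the arrays so. It was 1.63 and 2.66 at day 0 and 3.42, 3.83 and 3.60 at day 3. At day 7 it was 1.80, 2.95 and 1.70, and at day 30 it was 2.79, 3.15 and 3.11. Day 7 replicate 2 therefore lay above day 30 replicate 1. The part of brightness in these ratios was not tested.

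**Figure D3:**
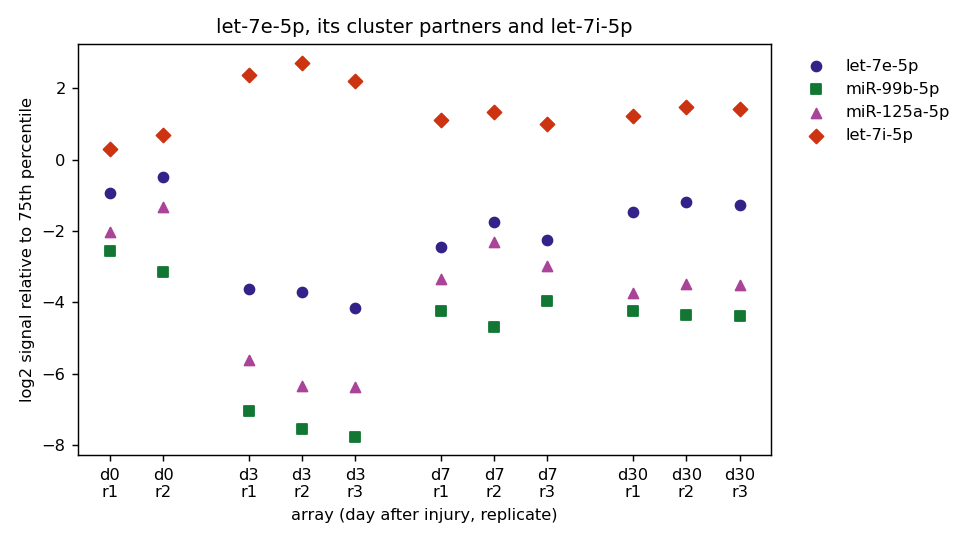
Scaled signal (log2 of signal over the array's 75th percentile) of let-7e-5p, its genomic neighbours miR-99b-5p and miR-125a-5p, and let-7i-5p on each of the 11 arrays. At day 3 the first 3 are at their lowest and let-7i-5p, at 2.21 to 2.71, is at its highest; heights are not comparable between probes.

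let-7c-5p and let-7b-5p, which share the chromosome 15 locus and differ by 1 base, followed let-7e-5p at day 3 to a smaller extent. let-7c-5p held 21.3 and 23.6% of the family signal at day 0, 7.39, 8.37 and 7.51% at day 3, 14.1, 18.4 and 16.3% at day 7, and 12.5, 13.3 and 13.2% at day 30. As for let-7e-5p the groups did not overlap, but day 7 lay above day 30. Its share was 2.89-fold lower at day 3 than at day 0 (log2 -1.53, SE 0.38, limma adjusted p = 0.00409) and 2.09-fold higher at day 7 than at day 3 (log2 1.06, SE 0.34, limma adjusted p = 0.0167). The day 7 call was lost without day 3 replicate 1 or 3 or day 7 replicate 3 (changes of 0.97 to 1.16). The day 30 and day 3 shares did not overlap but missed the threshold (log2 0.73, 95% interval -0.09 to 1.56, limma adjusted p = 0.162). In scaled signal let-7c-5p was lower at day 3 than at day 0 (log2 -1.19, SE 0.42, limma adjusted p = 0.0311), a call that was lost without any one of the 3 day 3 arrays or without day 30 replicate 1 (changes of -1.38 to -1.06 over all single omissions). Its sign turned under the 3 scalings named above, with changes of 2.31, 1.35 and 1.79.

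let-7b-5p varied widely between arrays of 1 group at day 0 and day 7. It held 12.5 and 24.2% of the family signal at day 0, 5.89, 8.28 and 5.80% at day 3, 10.1, 23.1 and 12.5% at day 7, and 6.79, 8.47 and 8.55% at day 30. The high values at day 0 and day 7 were those of the dimmest array of each group. Its share was 2.65-fold lower at day 3 than at day 0 (log2 -1.41, SE 0.48, limma adjusted p = 0.0223) and 2.17-fold higher at day 7 than at day 3 (log2 1.12, SE 0.43, limma adjusted p = 0.0349). Without single arrays the first of these ran from -1.88 to -0.93 and was no longer called without day 0 replicate 2 or without either of day 3 replicates 1 and 3. The second ran from 0.77 to 1.37 and was lost without day 3 replicate 1 or 3, day 7 replicate 2 or 3, or day 30 replicate 1. In scaled signal let-7b-5p passed no test between 2 groups, with a log2 change at day 3 against day 0 of -1.07 (95% interval -2.26 to 0.13, limma adjusted p = 0.118).

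let-7i-5p, encoded alone on chromosome 10, rose at day 3 on both scales. It held 5.53 and 6.87% of the family signal at day 0, 16.9, 20.3 and 18.5% at day 3, 13.1, 11.1 and 11.1% at day 7, and 12.1, 14.0 and 14.0% at day 30. Day 0 lay below all other arrays and day 3 above all others, while day 7 and day 30 overlapped. The share was 3.00-fold higher at day 3 than at day 0 (log2 1.59, SE 0.38, limma adjusted p = 0.00353) and 2.11-fold higher at day 30 than at day 0 (log2 1.08, SE 0.42, limma adjusted p = 0.0429). The second call was lost without day 30 replicate 1, any of the day 3 arrays, or day 7 replicate 1 or 3 (changes of 0.92 to 1.24). At day 7 against day 0 the share change was 0.93 (95% interval 0.10 to 1.76, limma adjusted p = 0.193), with no overlap between the 2 groups.

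The scaled signal of let-7i-5p was 0.50 ± 0.27 (log2, SD, n = 2) at day 0, 2.43 ± 0.26 (n = 3) at day 3, 1.14 ± 0.16 (n = 3) at day 7 and 1.34 ± 0.15 (n = 2) at day 30. It was 3.80-fold higher at day 3 than at day 0 (log2 1.93, SE 0.40, limma adjusted p = 0.00332). This was the one member whose scaled call in that comparison stood under all 27 alternative settings tried, with changes of 1.72 to 5.42. At day 7 it was lower than at day 3 (log2 -1.29, SE 0.36, limma adjusted p = 0.0153), lost without day 3 replicate 2 or day 7 replicate 3 (changes of -1.40 to -1.15). Within each array the log2 ratio of let-7i-5p to let-7e-5p was 1.24 and 1.19 at day 0, 5.99, 6.43 and 6.37 at day 3, 3.55, 3.05 and 3.26 at day 7, and 2.69, 2.66 and 2.70 at day 30. The groups did not overlap in this ratio, and day 3 lay far above the others. Day 7 and day 30 lay closest, and the spread within day 7 was wider than the gap between them.

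let-7g-5p, from within Wdr82, a gene for a subunit of histone methyltransferase complexes, divided the arrays in another way. It held 5.13 and 4.93% of the family signal at day 0, 10.1, 10.1 and 10.3% at day 3, 6.35, 3.75 and 5.49% at day 7, and 12.2, 12.1 and 12.2% at day 30. Day 3 and day 30 were high and day 0 and day 7 low, with day 0 and day 7 overlapping. That is also the division of bright and dim arrays. Against day 0 the share was 2.02-fold higher at day 3 (log2 1.01, SE 0.40, limma adjusted p = 0.0429) and 2.42-fold higher at day 30 (log2 1.27, SE 0.44, limma adjusted p = 0.0246). It was 2.00-fold lower at day 7 than at day 3 (log2 -1.0, SE 0.36, limma adjusted p = 0.0253) and 2.40-fold higher at day 30 than at day 7 (log2 1.26, SE 0.40, limma adjusted p = 0.0187). The day 3 rise kept a size of 0.99 to 1.04 without single arrays, but fell short of the threshold without any of 6 of them, namely the 3 day 3 arrays and day 0 replicate 2, the third array of day 7 or the first of day 30. The rise at day 30 over day 0 was not called without day 3 replicate 1 or 3 or day 30 replicate 1 (changes of 1.25 to 1.30), and that over day 7 not without day 30 replicate 1 (1.04 to 1.42). The day 7 fall (changes of -1.16 to -0.78) was not called without any of the same 3 day 3 arrays, day 7 replicate 2 or 3, or day 30 replicate 1. In scaled signal let-7g-5p was 2.56-fold higher at day 3 than at day 0 (log2 1.36, SE 0.39, limma adjusted p = 0.0116), and 3.10-fold lower at day 7 than at day 3 (log2 -1.63, SE 0.35, limma adjusted p = 0.00399). This last call stood under all 27 alternatives tried.

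let-7f-5p and miR-98-5p, which share the Huwe1 locus, both had higher values on the day 3 and day 30 arrays. let-7f-5p held 11.9 and 7.38% of the family signal at day 0, 20.7, 16.5 and 20.4% at day 3, 14.5, 6.87 and 13.3% at day 7, and 21.3, 18.3 and 18.4% at day 30. All day 3 and day 30 arrays, the bright ones, exceeded all day 0 and day 7 arrays. Its share nevertheless passed no test between 2 groups, the change at day 3 against day 0 being 1.03 (95% interval 0.06 to 2.00, limma adjusted p = 0.0654). In scaled signal it was 2.59-fold higher at day 3 than at day 0 (log2 1.37, SE 0.42, limma adjusted p = 0.0159), not so without day 0 replicate 2 or day 3 replicate 1 (changes of 0.76 to 1.67). It was 2.70-fold lower at day 7 than at day 3 (log2 -1.43, SE 0.38, limma adjusted p = 0.0112).

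miR-98-5p held 0.260 and 0.108% of the family signal at day 0, where the second array did not detect it, and 0.769, 0.683 and 1.04% at day 3. It held 0.380, 0.158 and 0.367% at day 7, and 0.520, 0.436 and 0.449% at day 30. Day 3 lay above all other arrays. The share was higher at day 3 than at day 0 (log2 2.28, SE 0.52, limma adjusted p = 0.00236). This size rests on a day 0 mean of 1 array that detected miR-98-5p and 1 that did not, and was 1.65 when the undetected day 0 replicate 2 was left out and 2.92 when day 0 replicate 1 was. The share was also higher at day 30 than at day 0 (log2 1.52, SE 0.57, limma adjusted p = 0.0359), a call lost without day 0 replicate 2, either of day 3 replicates 1 and 3, or the first day 30 array (changes of 0.88 to 2.15). At day 7 it was 2.92-fold lower than at day 3 (log2 -1.54, SE 0.46, limma adjusted p = 0.012), not called without day 7 replicate 2 (changes of -1.76 to -1.13). In scaled signal it was higher at day 3 than at day 0 (log2 2.63, SE 0.47, limma adjusted p = 0.00135), by 1.72 without day 0 replicate 2 and 3.22 without day 0 replicate 1, and lower at day 30 than at day 3 (log2 -1.35, SE 0.47, limma adjusted p = 0.0462). The last of these was lost without any single day 3 array, day 7 replicate 3 or day 30 replicate 1 (changes of -1.46 to -1.29).

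let-7a-5p and let-7d-5p, of the chromosome 13 cluster, passed no test between 2 groups on either scale. The let-7a-5p share was 27.6 and 19.5% at day 0 and 24.7, 22.6 and 23.4% at day 3. It was 25.3, 21.1 and 24.7% at day 7, and 21.9, 20.4 and 20.3% at day 30. The let-7d-5p share was 13.5 and 10.4% at day 0, 13.2, 13.0 and 12.9% at day 3, from 14.2 to 15.1% at day 7 and 10.8% on each day 30 array. Day 7 lay above all other arrays for let-7d-5p and day 30 below all day 3 and day 7 arrays, with a change of -0.45 at day 30 against day 7 (95% interval -1.27 to 0.37, limma adjusted p = 0.331). For let-7a-5p the day 0 arrays alone spanned a wider range than all others. Their share changes at day 3 against day 0 were 0.02 for let-7a-5p (95% interval -0.81 to 0.86) and 0.13 for let-7d-5p (interval -0.69 to 0.95), intervals that leave room for changes of either sign. let-7f-5p, which has a copy in the same cluster, did not hold a fixed ratio to let-7a-5p. The let-7f-5p signal was 43.0 and 37.9% of that of let-7a-5p at day 0 and 83.9, 72.8 and 87.1% of it at day 3. It was 57.1, 32.5 and 53.7% of it at day 7, and 97.3, 89.6 and 90.6% at day 30.

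**Figure D4:**
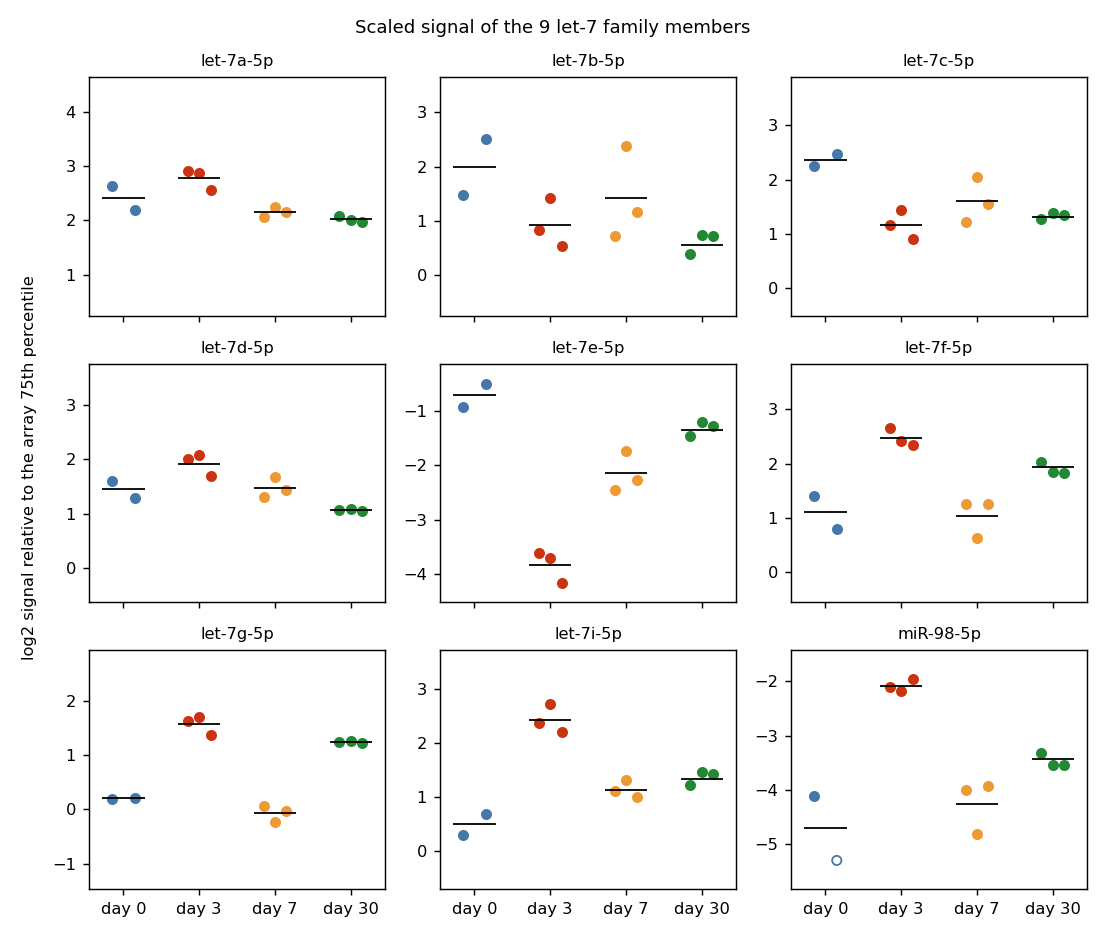
Scaled signal (log2 of signal over the array's 75th percentile) of the 9 members on each array by day, with bars at the group mean over samples and an open point where the member was undetected. let-7e-5p is lowest and let-7i-5p highest at day 3, and each panel spans the same number of log2 units.

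Brightness and sequence composition went together in these shares. In each group the dimmest array was set against the brightest. let-7b-5p, with 10 G or C bases the highest of the members, had a larger share on the dim array in 4 of 4 groups, by 0.32 to 1.20 in log2. miR-98-5p and let-7f-5p, with 7 G or C bases each, had a smaller share on the dim array in 4 of 4 groups, by -1.27 to -0.25 and by -1.08 to -0.22. let-7c-5p and let-7e-5p were higher on the dim array in all 4 groups by at most 0.38 and 0.37, and let-7i-5p differed by -0.25 to 0.31. Across the 9 members, Pearson's r between the number of G or C bases and the mean difference of dim and bright arrays was 0.956. The points share the same 8 arrays and a sum that is fixed at 100%, and the dim array was replicate 2 in every group, which lay on the second slide. The r between G or C bases and the share change at day 3 against day 0 was -0.632 over the same 9 members. let-7e-5p and let-7i-5p have 9 such bases each and went opposite ways at day 3.

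**Figure D5:**
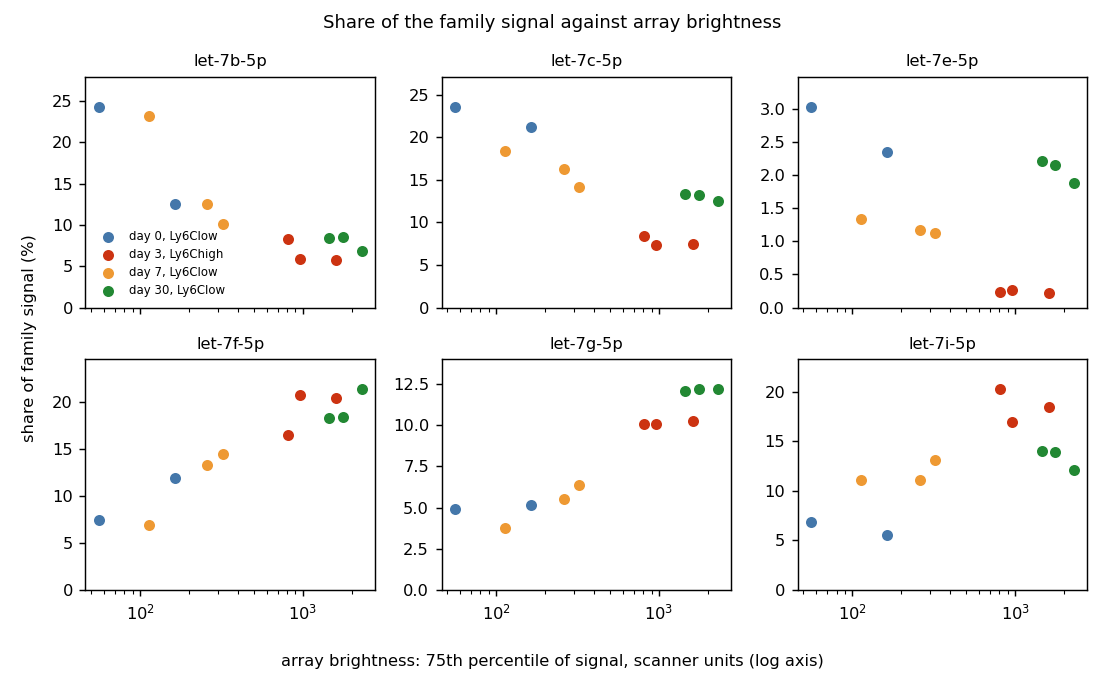
Share of the family signal (percent) against array brightness (75th percentile of signal in scanner units, log axis) for 6 members, one point per array, coloured by group. The let-7b-5p share is lower, and the let-7f-5p share higher, on all day 3 and day 30 arrays than on the dimmer day 0 and day 7 arrays. Within each group the brightest array differs from the dimmest in the same directions. For let-7e-5p the day 3 and day 30 arrays do not overlap in share (0.224 to 0.267% and 1.89 to 2.22%). In brightness they do (805 to 1607 and 1453 to 2304 units).

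With the log2 brightness of each array as a term in the fit, let-7e-5p kept its share calls, and lost 2 of its 3 scaled calls. Its share change was -2.77 at day 3 against day 0 (SE 0.58, limma adjusted p = 0.0217), 1.85 at day 7 against day 3 (SE 0.41, limma adjusted p = 0.0231) and 3.24 at day 30 against day 3 (SE 0.27, limma adjusted p = 0.000131). Its scaled change was -1.72 at day 3 against day 0 (SE 0.60, limma adjusted p = 0.072) and 0.75 at day 7 against day 3 (SE 0.43, limma adjusted p = 0.271), neither called, and 2.82 at day 30 against day 3 (SE 0.29, limma adjusted p = 0.000212). For let-7i-5p the scaled day 3 rise was kept, at 2.83 (SE 0.61, limma adjusted p = 0.0155), and the share rise was not called, at 1.79 (SE 0.62, limma adjusted p = 0.117). None of the 5 day 3 share calls of members other than let-7e-5p was made with that term, and 2 changed sign, let-7b-5p to 0.85 and miR-98-5p to -0.49. The slope of that term comes from the spread of brightness within groups and is carried over to the wider gaps between them. Within each group the dimmest array was replicate 2, on the second slide, so the slope does not tell brightness from slide. With day 0 and day 7 dim and day 3 and day 30 bright, changes between those groups under the term are extrapolations. The 6 share changes called at day 3 against day 0 had the same sign within each of the 2 slides. For example they were -3.26 and -3.68 for let-7e-5p and 1.68 and 1.56 for let-7i-5p. The 6 were called on these same arrays, and each slide held 1 day 0 array, so the shared sign is a description and not a separate test. With the slide as a block all 6 were called, and let-7f-5p was added at 0.93 (SE 0.36, limma adjusted p = 0.0421).

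Across the 10 samples the members fell into sets by scaled signal. Pearson's r was 0.961 between let-7f-5p and miR-98-5p, 0.942 between let-7f-5p and let-7g-5p, 0.919 between let-7a-5p and let-7d-5p and 0.879 between let-7b-5p and let-7c-5p. let-7e-5p and let-7i-5p went against each other (r = -0.866). let-7e-5p followed miR-99b-5p (0.931), miR-125a-5p (0.923) and miR-99a-5p (0.936), while let-7i-5p ran against miR-99b-5p (-0.972) and miR-125b-5p (-0.980). For let-7c-5p the r with its chromosome 16 neighbour miR-99a-5p was 0.509. These values describe 10 samples in 4 groups that share the differences in brightness.

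The miRNAs outside the family whose scaled signal was most like each member's were ranked by Pearson's r over the same 10 samples among 118 miRNAs detected on all arrays. They were miR-151-5p (0.959) and miR-99a-5p (0.936) for let-7e-5p, and miR-15b-5p (0.932) and miR-93-5p (0.915) for let-7i-5p. For let-7c-5p they were miR-674-3p (0.938) and miR-709 (0.915), and for let-7b-5p miR-877-3p (0.920) and miR-3085-3p (0.911). miR-16-5p came first for let-7f-5p (0.981) and for miR-98-5p (0.956), followed by miR-107-3p (0.965) and miR-425-5p (0.945). For let-7g-5p the leading pair was miR-20a-5p (0.958) and miR-103-3p (0.942), for let-7d-5p miR-652-3p (0.906) and miR-25-3p (0.854), and for let-7a-5p miR-15b-5p (0.811) and miR-25-3p (0.769).

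Relatives outside the 9 members gave little signal. let-7k and miR-1961, which have the same seed, and let-7j, whose seed is another, were undetected on all 11 arrays. Of 11 opposite-strand (3p) arms of the family's hairpins on the array, 7 were never detected. let-7b-3p and let-7f-1-3p were detected on 10 arrays each, the exception being day 30 replicate 2 for both. The log2 scaled signal of let-7b-3p was -4.88 and -2.79 at day 0, -6.31, -6.01 and -7.27 at day 3, -5.50, -3.77 and -4.78 at day 7, and at the floor of -8.53 on all 3 day 30 arrays. Its group means ran from high to low in the order day 0, day 7, day 3 and day 30. That is the order of let-7b-5p, which shares its hairpin, on the same scale, and that of array brightness from dim to bright.

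The sorted cells carried haematopoietic and myeloid miRNAs. The summed signal of these was high at day 3 and day 30, as were the let-7f-5p and let-7g-5p shares. Day 3 and day 30 were also the bright arrays, and the part of brightness in this likeness was not tested. A list of 6 such miRNAs, most of whose signal came from miR-223-3p and miR-21a-5p, summed to between 1.92 and 6.64% of the total signal at day 0 and between 17.2 and 20.1% at day 3. The sum lay between 3.84 and 5.81% at day 7, and between 14.4 and 15.8% at day 30. In scaled signal 5 of the 6 were called higher at day 3 than at day 0, among them miR-223-3p (log2 1.51, SE 0.43, limma adjusted p = 0.0112) and miR-21a-5p (log2 3.47, SE 0.41, limma adjusted p = 0.000149). miR-146a-5p, known to restrain inflammatory signalling, was lower (log2 -4.59, SE 0.66, limma adjusted p = 0.000357). Of 6 cardiomyocyte miRNAs 3 were never detected (miR-208a-3p, miR-208b-3p and miR-499-5p), and miR-1a-3p was detected on 6 arrays. The list was lowest at day 3, as let-7e-5p was, and summed to between 0.0798 and 0.0854% of the signal on the day 0 arrays and between 0.0113 and 0.0205% on those of day 3. The sum was between 0.0541 and 0.0636% on the day 7 arrays and between 0.0351 and 0.0506% on those of day 30. In scaled signal miR-133a-3p (log2 -2.81, SE 0.43, limma adjusted p = 0.000672) and miR-133b-3p (log2 -2.75, SE 0.44, limma adjusted p = 0.000881) were lower at day 3 than at day 0. The 2 endothelial miRNAs summed to 0.0461 to 0.134% at day 0 and to between 0.140 and 0.201% on the other arrays. The 5 fibroblast and smooth muscle miRNAs summed to between 0.0382 and 0.0421% on the day 0 arrays, between 0.0393 and 0.0629% on those of day 3, between 0.104 and 0.220% on those of day 7 and between 0.121 and 0.135% on those of day 30. Of 2 erythroid miRNAs, miR-144-3p was never detected and miR-451a was detected on all day 3 and day 30 arrays and on 1 other. The list summed to between 0.0141 and 0.0320% at day 3 and between 0.0513 and 0.0674% at day 30. At day 0, where neither was detected, it still summed to between 0.0114 and 0.0153%. All these list sums take in undetected signals. Of the 5 fibroblast and smooth muscle miRNAs, at most 1 was detected on a day 0 array, 3 on a day 7 array and 4 on a day 3 or day 30 array. The part of any of these cells in the let-7 changes was not tested, and fewer cells of a type cannot be told apart from less RNA per cell in such pooled samples.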

How the data were processed

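Cy3 was used to label 100 ng of each sample's total RNA, and replicates were biologically independent, per the labels' protocols. Agilent Feature Extraction read the scans, per the submitters' processing notes; its version was not among the sources used here. Per the file headers, the deposited gene-level files hold, for 1247 miRNAs and 21 controls, the total gene signal (an intensity in scanner units), the error of that signal and a flag that is 1 where the miRNA was detected. The deposited table of the authors holds log2 values for 317 miRNAs and served as an alternative.

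Signals were divided by the 75th percentile within the array, taken over the 126 miRNAs found on every array, raised to a floor (log2 of -8.53) and logged. Shares used the sum of the 9 members as divisor for the whole table. The 369 miRNAs detected on at least 2 arrays were fitted in limma 3.58.1 (R 4.3.3, jsonlite 2.0.0), all 4 groups together, with 6 residual degrees of freedom, moderated tests for 6 comparisons and an F test. Adjustment was by Benjamini-Hochberg within each comparison, with a threshold of 0.05. Day 30 replicates 2 and 3 were averaged: their squared difference was 0.209 times that expected from scanner error, against 2.74 to 43.1 times for the other pairs. Slides were taken from the barcode in the names of the scanner files. The steps were tested on simulated data. All 9 members are named, with the genomic partners, 3p arms, same-seed miRNAs and 2 nearest neighbours by Pearson's r per member. Members and lists were chosen with earlier results of these data known. The number of arrays limits the precision.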

Additional observations from a re-analysis of the deposited data

How the results depend on the processing

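On shares, the 3 let-7e-5p calls (day 3 over day 0, and days 7 and 30 over day 3) stood under all 24 alternatives tried, and on the scaled signal its day 30 call against day 3 and the let-7i-5p call for day 3 over day 0 stood under all 27. The choice of scaling decided the sign of several members, on arrays whose brightness moved with the groups. Without scaling, for day 3 over day 0, let-7b-5p, let-7c-5p and let-7e-5p changed by 2.43, 2.31 and 0.37 in log2. For day 30 over day 0, let-7a-5p to let-7e-5p changed by 3.95, 2.89, 3.29, 3.95 and 3.70. At day 7 against day 3, let-7b-5p, let-7c-5p and let-7e-5p changed by -1.86, -1.91 and -0.66. For day 30 over day 7, let-7a-5p to let-7d-5p changed by 3.06, 2.32, 2.89 and 2.77. With the 75th percentile over all miRNAs, let-7b-5p and let-7c-5p changed by 1.48 and 1.35 for day 3 over day 0. With it, for day 30 over day 0, let-7a-5p to let-7e-5p changed by 2.57, 1.51, 1.90, 2.57 and 2.31, and let-7c-5p changed by 1.34 for day 30 over day 7. With scaling on 4 control features of the arrays, let-7b-5p and let-7c-5p changed by 1.92 and 1.79 for day 3 over day 0, and let-7a-5p to let-7e-5p by 3.55, 2.48, 2.88, 3.54 and 3.29 for day 30 over day 0. On that scaling let-7b-5p, let-7c-5p and let-7e-5p changed by -1.32, -1.38 and -0.12 for day 7 over day 3, and let-7a-5p to let-7d-5p by 2.63, 1.89, 2.46 and 2.34 for day 30 over day 7. With array brightness as a covariate, let-7c-5p was at 0.0514 in scaled signal for day 3 over day 0. In share, let-7b-5p was then at 0.85 and miR-98-5p at -0.49 for day 3 over day 0, let-7b-5p at -0.40 and miR-98-5p at 0.32 for day 7 over day 3, and miR-98-5p at -1.92 for day 30 over day 0. The cause of these turns was not tested.

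Counts of members called in scaled signal moved as follows. The shares of all miRNAs called under these settings were not taken, here or for the later counts. The counts therefore describe the settings and are not results about the family. Without scaling they were 9 in the F test, 1 for day 7 and 9 for day 30 over day 0, 8 for day 7 and 1 for day 30 over day 3, and 9 for day 30 over day 7. With the 75th percentile over all miRNAs they were 9 in the F test, 1 at day 7 and 9 for day 30 over day 0, 1 for day 30 over day 3 and 5 for day 30 over day 7. With the control features they were 9 in the F test, 1 at day 7 and 9 for day 30 over day 0, 8 for day 7 over day 3 and 9 for day 30 over day 7. At day 7 against day 0 the count was 1 with quantile normalization, cyclic loess, the authors' table, the highest floor over arrays, only miRNAs detected on all arrays, no filter, 11 separate arrays and the slide block. At day 30 against day 0 it was 4 with the median of miRNAs detected on all arrays, quantile normalization, the authors' table, only miRNAs detected on all arrays and the slide block. It was 3 with cyclic loess, 2 with the highest floor and with no filter, and 5 with 11 separate arrays. At day 30 against day 3 it was 1 with the median scaling, the authors' table and no filter, 4 with the highest floor and 11 separate arrays, and 6 with array quality weights and with only the 2 groups compared. At day 30 against day 7 it was 2 with the median scaling, quantile normalization, the authors' table and only miRNAs detected on all arrays, 4 with cyclic loess, 3 with 11 separate arrays and the slide block, 5 with quality weights, and 0 with no filter and with brightness as a covariate. For day 3 over day 0 it was 8, all higher, without scaling, with the 75th percentile over all miRNAs and with the control features, 1 with brightness as a covariate and 3 with quality weights and with only the 2 groups compared, and for day 7 over day 3 it was 2 with brightness as a covariate.

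On shares, the count for day 30 over day 0 was 5 with only miRNAs detected on all arrays and with the slide block, 6 with 11 separate arrays, and 0 with brightness as a covariate, with quality weights and with only the 2 groups compared. For day 30 over day 7 it was 2 with the highest floor, only miRNAs detected on all arrays and 11 separate arrays, 3 with the slide block, 5 with quality weights and 0 with brightness as a covariate. For day 30 over day 3 it was 3 with the highest floor, brightness as a covariate and only the 2 groups compared, and 4 with quality weights. With brightness as a covariate it was 1 for day 3 over day 0 and 1 for day 7 over day 3, and with the highest floor it was 2 for day 7 over day 0.

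With the replicate number as a block and 11 separate arrays, the counts were 5, 4 and 3 in scaled signal for day 30 over day 0, day 3 and day 7, and on shares 5 for day 30 over day 0 and 4 for day 30 over day 7. Of 15 pairs of arrays with the same number in different groups, 6 had deviations correlated above 0.1 (range -0.245 to 0.503), so the numbers were not taken to pair the samples.

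Without single arrays, the counts ran from 4 to 7 for day 3 over day 0 on both scales, 0 to 4 in scaled signal and 0 to 6 on shares for day 30 over day 0, and 0 to 1 on both for day 7 over day 0. They ran from 4 to 6 in scaled signal and 2 to 7 on shares for day 7 over day 3, from 1 to 5 and 1 to 2 for day 30 over day 3, and from 0 to 3 and 0 to 2 for day 30 over day 7. The F test called 4 to 9 and 3 to 7 members. With 2 samples at day 0 and at day 30, and members within a few bases of each other, small changes and the separation of near neighbours stay limited by the number of arrays and by the probes.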
